A study of Mus musculus with 4 samples.

Results

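Annexins and S100 proteins are 2 families of calcium-dependent proteins of the cell cortex, and 10 of their genes are described here, 7 annexins (Anxa1, Anxa2, Anxa4, Anxa5, Anxa6, Anxa7 and Anxa11) and 3 S100 genes (S100a4, S100a6 and S100a10). They were taken by gene symbol from a table of 55401 genes, and each symbol had 1 row. The members were chosen with the difference between the groups already known, so that difference is given below as a description and no p is quoted for them. The RNA was that of splenic P14 cells, CD8+ T cells of mice with a transgenic receptor for lymphocytic choriomeningitis virus (LCMV), after LCMV-Armstrong infection. One group carried the empty vector (pMIA) and the other the same vector with Hic1, which encodes a transcriptional repressor with zinc fingers, with 2 libraries in each group. The time is day 32 in the sample labels but day 7 in the text of the series. The sources used here do not give the age and sex of the mice, the promoter that drives Hic1, or whether cells of several mice were pooled.

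Annexins bind membranes that carry negatively charged phospholipids such as phosphatidylserine when calcium rises, and they take part in membrane repair, vesicle traffic and the anchoring of actin to the membrane. S100 proteins are small dimers with EF-hand motifs that bind calcium and then dock onto target proteins. The families meet in the complex of annexin A2 with S100A10, in which S100A10 holds its active shape without binding calcium. In T cells, activation and effector differentiation are known to raise several of these genes, and S100a4, S100a6, Anxa1 and Anxa2 are common markers of effector and effector-memory cells.

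Total counts were 3941364 to 4017346 with the empty vector and 7501285 to 8839317 with the Hic1 vector, so the deeper libraries were all of 1 group. Hic1 itself had 3 and 5 counts with the empty vector and 314 and 161 with the Hic1 vector. All 12 defining genes of CD8 T cells had counts in every library, with Cd8a at 665.1 to 875.9 CPM (read counts relative to library size, the sizes being adjusted by TMM, the trimmed mean of M values), whereas Cd4 had at most 5 counts. Xist, the RNA of the inactive X chromosome, had 1885 and 3590 counts in replicate 1 of each group and at most 3 in replicate 2, while the Y-linked gene Eif2s3y had 396 and 951 counts in replicate 2 and 0 in replicate 1. Differences within each replicate number, as log2(CPM + 1), are therefore given beside the fitted values. The labels do not say whether replicates came from separate mice. In both groups, however, the Xist and Eif2s3y counts point to female donors for number 1 and male donors for number 2. Numbers 1 and 2 were therefore not drawn from a single mouse. Whether libraries with the same number shared a mouse is not known. Errors and p-values measure the spread between these samples.

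The sequences before the start sites of 3 members are shown because these genes differ in promoter type and in how far they differed between the groups: Anxa11 and S100a4 lay lower with the Hic1 vector in both replicate numbers, and Anxa2, the most abundant annexin beside Anxa6, differed less. The sequences are RefSeq's (GRCm38.p6, plus strand, 5′ to 3′), and they end just before the first annotated exon. Capitals mark motifs found by search.
Anxa11 (chr14:25841905-25842154): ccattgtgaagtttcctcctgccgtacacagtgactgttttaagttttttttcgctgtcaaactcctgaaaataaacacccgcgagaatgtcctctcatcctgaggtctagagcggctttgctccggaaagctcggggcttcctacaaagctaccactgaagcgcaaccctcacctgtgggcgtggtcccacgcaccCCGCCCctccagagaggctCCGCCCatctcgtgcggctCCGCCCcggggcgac
S100a4 (chr3:90603520-90603769): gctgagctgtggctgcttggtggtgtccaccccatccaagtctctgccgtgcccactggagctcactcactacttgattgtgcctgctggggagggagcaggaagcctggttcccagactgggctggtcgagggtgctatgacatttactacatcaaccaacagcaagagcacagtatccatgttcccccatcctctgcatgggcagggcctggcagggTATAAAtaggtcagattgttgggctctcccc
Anxa2 (chr9:69453433-69453619): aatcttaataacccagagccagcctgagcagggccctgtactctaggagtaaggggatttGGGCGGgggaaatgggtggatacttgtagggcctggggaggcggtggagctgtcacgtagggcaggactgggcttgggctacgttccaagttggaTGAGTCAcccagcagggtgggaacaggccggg
The Anxa11 stretch holds the GC box GGGCGG 3 times, each on the minus strand and so printed as CCGCCC, at 53, 34 and 15 bases before the RefSeq start. The S100a4 stretch has a TATA box, TATAAA, 31 bases before the start. In Anxa2 the capitals are a GC box at 190 bases and the AP-1 motif TGANTCA, here TGAGTCA, at 95 bases before the start. The printed Anxa2 stretch stops 63 bases before the RefSeq start, where annotated exon begins. The bases left out hold further GC boxes at 48 and 24 bases and TATAAA at 17 bases before that start.

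Windows of 250 bases before the start were found for 8 of the 10 members, which gave 10 windows, since Anxa4 and Anxa7 have 2 each. Both strands were searched, and no 2 of the motifs named here overlap in the 3 printed stretches. Part of the Hic1 motif, written here as GGGCANCC, was in 0 of the 10 windows, against 4.53% of 32851 windows of all genes. Shorter forms of that motif were not searched. The GC box was in 4 of the 10, those of Anxa2 and Anxa11 and both of Anxa7, and in 32.7% of all windows. The windows of Anxa7 overlap and share a GC box. TATAAA was in 3 of the 10 (Anxa1, Anxa2 and S100a4) and in 12.4% of all. The Anxa1 window lies wholly within annotated exon, and its sequence is not printed. TGANTCA was in 1 of the 10 and in 6.75% of all, and AGAACA, part of the glucocorticoid receptor's motif, was in 2 of the 10 (a window of Anxa4 and that of S100a6) and in 16.1% of all. The CCAAT box, CCAAT, was in 1 of the 10 (that of S100a6) and in 33.8% of all. These matches describe letters in a short window and do not show binding.

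All 10 members passed the filter on low counts. Anxa1 and Anxa11 had the largest differences, and S100a4 came next, all lower with the Hic1 vector. S100a6, Anxa2, Anxa5, Anxa4 and S100a10 had fitted differences below 0 but nearer to it, and Anxa6 and Anxa7 had differences above 0. The fitted log2 values ran from -1.32 to 0.32 with a median of -0.24, against a median of 0.0087 over all 11676 genes tested. The summed level of the members was 6220 and 5907 CPM with the empty vector and 5632 and 5657 CPM with the Hic1 vector, a log2 difference of -0.10 between the means. The groups did not overlap in that sum, by a small margin.

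By edgeR's quasi-likelihood test with a Benjamini-Hochberg adjusted p below 0.05 over all genes, 1 of the 10 members was called, Anxa1, in the downward direction, where 1.1% of all genes tested were called lower, and 1.72% of the 6034 genes at least as abundant as the lowest member. None was called higher, where 0.719% of all genes were. In either direction 1.82% of all genes were called, 84 higher and 129 lower, and with library sizes alone in place of TMM the split was 70 higher and 251 lower. Both Hic1 vector libraries lay below both empty vector libraries for 5 members (Anxa1, Anxa5, Anxa11, S100a4 and S100a6), against 24.9% of all genes and 25.2% of those 6034. They lay above them for 2 (Anxa6 and Anxa7), against 26.5% of all genes and 31.6% of the 6034. These shares are a background for the counts and no test of them, because the members were chosen on this difference.

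**Figure D1:**
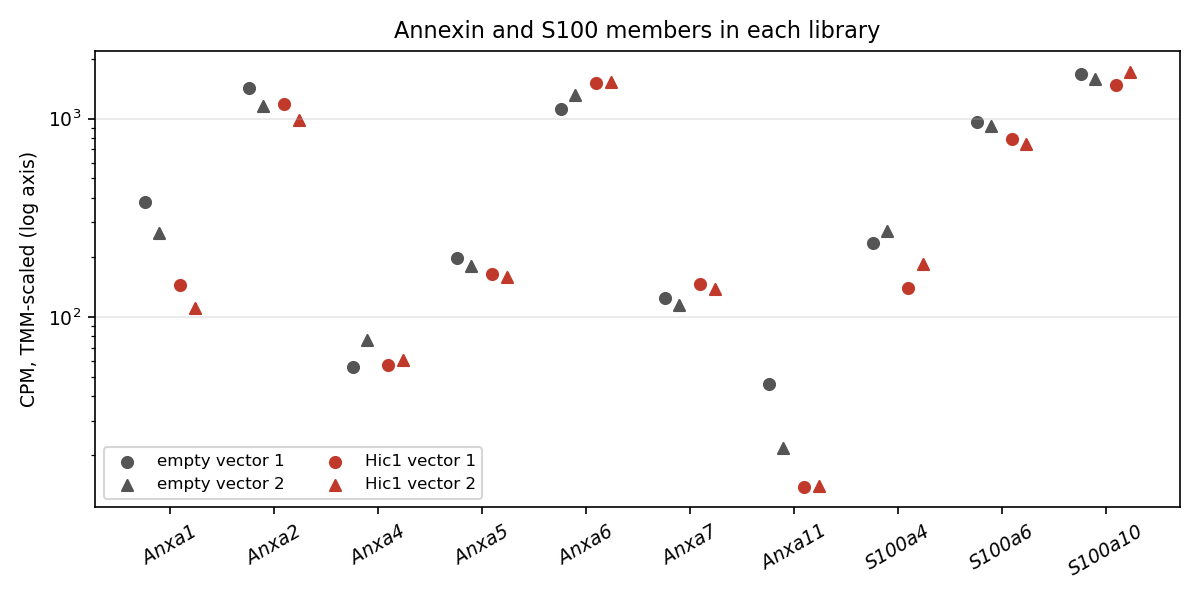
Level of each of the 10 members in each of the 4 libraries, in TMM-scaled CPM on a log axis; grey points are empty vector libraries, red points Hic1 vector libraries, circles replicate number 1 and triangles number 2. Anxa1, Anxa11 and S100a4 show the red points clear of the grey ones, while those of Anxa4, Anxa2 and S100a10 overlap.

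Anxa1 encodes annexin A1, which mediates anti-inflammatory effects of glucocorticoids through formyl peptide receptors and inhibits phospholipase A2. It lies on chromosome 19, positions 20373428 to 20390944, minus strand (mm10, GENCODE M21). Its level was 378.2 and 264.3 CPM with the empty vector and 145.3 and 111.3 CPM with the Hic1 vector, from 1558, 1058, 1032 and 977 counts. The groups did not overlap, and the lowest empty vector library was well above the highest Hic1 vector library. The fitted log2 fold change was -1.32 ± 0.196 (SE, n = 2 per group), with -1.37 within replicate number 1 and -1.24 within number 2. Only 2.2% of all genes tested had a lower log2 fold change. Without empty vector replicate 1, the library with the highest level, the value was -1.04 and Anxa1 was not called. Its transcript had the lowest GC content of the 10, 43.6%, and with a GC trend removed from each library the value was -1.18. In RNA from bulk cells, fewer cells of a type and less RNA per cell cannot be told apart.

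Anxa11 encodes annexin A11, which has a long N-terminal domain and couples RNA granules to lysosomes. It lies on chromosome 14, positions 25842156 to 25886804, plus strand, and was the least abundant member. Its level was 46.1 and 21.7 CPM with the empty vector and 13.94 and 14.02 CPM with the Hic1 vector, from 190, 87, 99 and 123 counts. The Hic1 vector libraries were alike, and the spread came from the empty vector pair, whose first library was the highest. The fitted value was -1.26 ± 0.34 (log2, SE), with -1.66 within replicate number 1 and -0.60 within number 2. Without empty vector replicate 1 it was -0.62, and without empty vector replicate 2 it was -1.71. An antisense gene, Anxa11os, lies inside the gene with 17 to 34 counts per library. The strand setting of the counting is unknown here, so reads of the pair may not have been told apart.

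S100a4 encodes S100A4, which binds non-muscle myosin IIA and promotes motility. It lies on chromosome 3, positions 90603771 to 90606045, plus strand. Its level was 235 and 271.8 CPM with the empty vector and 140.4 and 184.1 CPM with the Hic1 vector. The groups did not overlap. The fitted value was -0.64 ± 0.166 (log2, SE), or 1.56-fold lower, with -0.74 and -0.56 within replicate numbers 1 and 2. Without Hic1 vector replicate 2 it was -0.85 and was called by the edgeR test. With all libraries it was not called by that test as first set, but it was called in 4 other fits, DESeq2 among them. Its neighbour S100a6, whose product binds the calcyclin-binding protein, starts 9.11 kb further on. S100a6 was at 962.2 and 913.6 CPM with the empty vector and 790 and 748.5 CPM with the Hic1 vector. Its fitted value was -0.29 ± 0.117 and its differences within the replicate numbers were -0.28 and -0.29, so a small difference recurred in both.

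The pair that forms the annexin A2 and S100A10 complex differed little between the groups. Anxa2 (chromosome 9, positions 69453620 to 69491795, plus strand) was at 1428 and 1163 CPM with the empty vector and 1186 and 984.6 CPM with the Hic1 vector. The groups overlapped, since Hic1 vector replicate 1 lay above empty vector replicate 2, although the value was lower within both replicate numbers (-0.27 and -0.24). S100a10 (chromosome 3, positions 93555080 to 93564643, plus strand) was at 1670 and 1592 CPM with the empty vector and 1482 and 1728 CPM with the Hic1 vector. Its fitted value was -0.023 ± 0.119, with -0.17 within number 1 and 0.12 within number 2, and its sign changed with the library left out. Per kb of merged exons, the ratio of S100a10 to Anxa2 was 3.60 and 4.22 with the empty vector and 3.85 and 5.40 with the Hic1 vector. The groups overlapped in this ratio. The ratio of Anxa1 to Anxa2 on the same scale was 0.34 and 0.291 against 0.157 and 0.145, without overlap.

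Anxa6 encodes annexin A6, which has a doubled annexin core and organises cholesterol and signalling at the membrane. It lies on chromosome 11, positions 54979108 to 55033445, minus strand. Its level was 1123 and 1308 CPM with the empty vector and 1506 and 1530 CPM with the Hic1 vector. The groups did not overlap, and the fitted value was 0.32 ± 0.119 (log2, SE), with 0.42 and 0.23 within the replicate numbers. Anxa7, which encodes a fusogenic annexin also called synexin, was at 124.8 and 114.4 CPM against 146.1 and 138.7 CPM. Its value was 0.25 ± 0.149, with 0.23 and 0.28 within the numbers. Anxa6 and Anxa7 kept a value above 0 in all 13 alternative fits, from 0.18 to 0.42 for Anxa6 and from 0.18 to 0.32 for Anxa7, and neither was called in any of them.

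Anxa5 encodes annexin A5, the protein used to stain phosphatidylserine on dying cells, and Anxa4 encodes an annexin of secretory membranes. Anxa5 was at 197.8 and 181.4 CPM with the empty vector and 164.4 and 158.2 CPM with the Hic1 vector, a fitted log2 value of -0.23 ± 0.144 with differences of -0.27 and -0.20 within the numbers. Its groups did not overlap, by a small margin. Anxa4 was at 55.6 and 76.7 CPM against 57.4 and 60.4 CPM, with a fitted value of -0.17 ± 0.199. Its groups overlapped, and the value within number 1 was 0.047 while that within number 2 was -0.34.

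**Figure D2:**
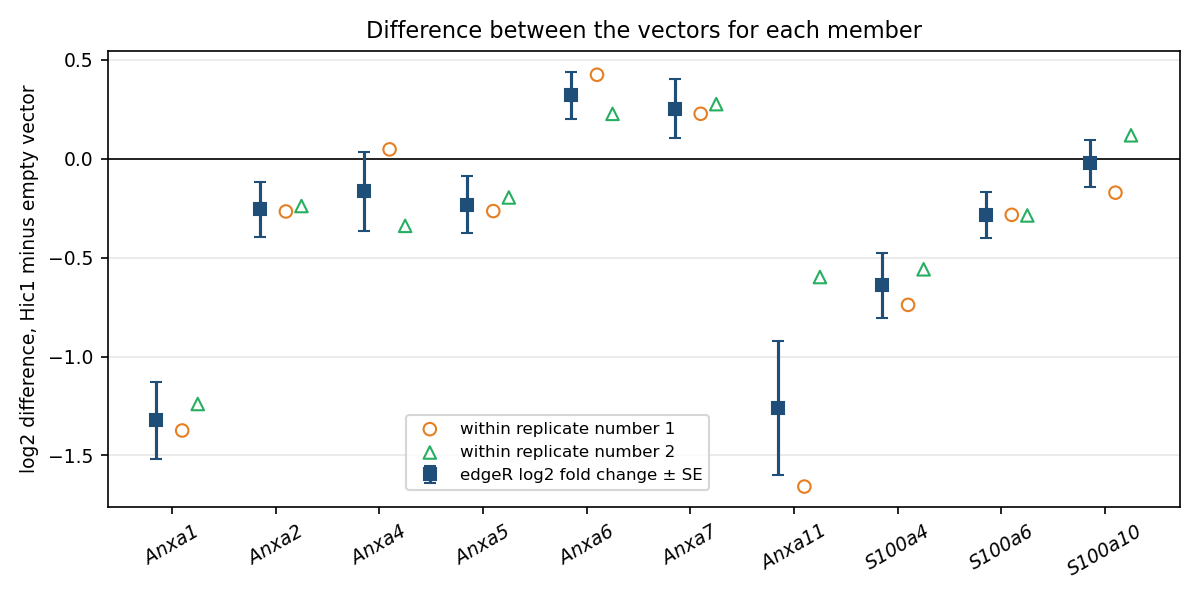
Log2 difference between Hic1 vector and empty vector for each member; squares are the edgeR log2 fold change with its SE (n = 2 libraries per group), circles and triangles the difference of log2(CPM + 1) within replicate numbers 1 and 2. Anxa1, at -1.37 and -1.24, and S100a6, at -0.28 and -0.29, differ by much the same amount in both numbers, whereas Anxa11, at -1.66 and -0.60, does not.

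Set per kb of merged exons, so that genes can be compared, S100a10 stood highest in every library at 1222 to 1425 CPM per kb, and S100a6 came second at 547.6 to 703.9. S100a4 came next with the empty vector (402.3 and 465.4) but stood below Anxa6 with the Hic1 vector (240.4 and 315.3, against 514.2 and 522.1 for Anxa6). Anxa2 was at 382.6 and 311.6 with the empty vector and at 317.9 and 263.9 with the Hic1 vector. The order of Anxa2, S100a4 and Anxa6 changed with the library and with the choice of length. In both Hic1 vector libraries, however, Anxa6 was above Anxa2 and S100a4 on either length. Anxa5 and Anxa1 followed. Anxa1 was at 129.9 and 90.8 with the empty vector, where its order with Anxa5 (111.3 and 102.1) differed between the libraries, and at 49.9 and 38.2 with the Hic1 vector, below Anxa5 (92.5 and 89.0) in both. Per kb of the longest transcript, Anxa1 was above Anxa5 in both empty vector libraries (225.9 against 114.3 and 157.9 against 104.8). Anxa7 (19.1 to 24.4), Anxa4 (12.0 to 16.5) and Anxa11 (3.37 to 11.2) were lowest.

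Outside the 10 members the families were mostly silent. Of 5 other annexin genes, 1 passed the filter on low counts, Anxa9, at 0.342 to 1.94 CPM with a log2 value of -1.61 ± 0.659 (adjusted p = 0.209 by edgeR's quasi-likelihood test). Anxa3, Anxa8, Anxa10 and Anxa13 had at most 8 counts in any library. Of 15 other S100 genes, 3 were tested and none was called. S100a11, which binds annexin A1, was at 151.5 and 123.9 against 147.7 and 157.8 CPM, a log2 value of 0.15 ± 0.158 (adjusted p = 0.661). S100a13, which takes part in the release of growth factors that lack a signal peptide, was at 166.5 and 171.6 against 164.7 and 216.6 CPM, a value of 0.17 ± 0.163 (adjusted p = 0.613). S100a1 was at 2.75 to 8.32 CPM with a value of 0.92 ± 0.541 (adjusted p = 0.386). The same edgeR test gave an unadjusted p below 0.05 for 1 of these 4 tested genes, Anxa9, and none of the 4 was called by DESeq2 or limma voom. DESeq2 gave no adjusted p for Anxa9, so it could not have called that gene. S100a5 and S100z had 0 counts in every library, which allows up to 0.342 to 0.749 CPM by counting error alone (3 counts per library).

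The S100 genes of chromosome 3 lie in 2 groups, and most genes of the first group were near 0 beside the abundant ones. S100a4 and S100a6 are next to S100a5, which had 0 counts, and S100a3, with 1 to 5 counts. S100a1 (minus strand) and S100a13 (plus strand) point away from each other, with 42 bases between their starts. The level of S100a13 was far above that of S100a1. S100a10 lies 2.94 Mb from S100a6 and 34.6 kb from S100a11. The neutrophil genes S100a8 and S100a9, at the far end of the first group, had at most 1 and 5 counts in a library.

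Among 22 genes of known annexin and S100 partners, 15 were tested, 1 fell, none rose and 14 did not pass. Their median log2 value was 0.11, against 0.0087 over all genes tested. Ahnak, the very large scaffold bound by the annexin A2 and S100A10 complex, was at 1432 and 1259 CPM with the empty vector and 896.3 and 823.4 CPM with the Hic1 vector. The groups did not overlap. Ahnak fell by 0.65 on the log2 scale (SE 0.122, adjusted p = 0.0274 by edgeR's quasi-likelihood test), with -0.68 and -0.61 within the replicate numbers. It was called in 11 of 13 alternative fits (adjusted p from 0.00104 to 0.218); without empty vector replicate 1 the value was -0.55 and without Hic1 vector replicate 2 it was -0.58, and neither passed. Myh9, the heavy chain of non-muscle myosin IIA and a target of S100A4, was at 749.3 and 525.4 against 398.4 and 305.8 CPM. Its log2 value of -0.86 ± 0.188 did not pass (adjusted p = 0.0544 by the same test), and it was called in 9 of the 13 alternatives. Ager, the receptor for advanced glycation end products and for extracellular S100 proteins, had few counts, at most 31 in a library. It was at 0.97 and 0.25 against 2.82 and 3.53 CPM, a log2 value of 1.89 ± 0.669. Pdcd6, an EF-hand partner of annexins A7 and A11, had a value of 0.34 ± 0.152. Neither Ager nor Pdcd6 passed.

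Of 18 membrane repair genes, 13 were tested (median 0.14): 2 rose, 11 did not pass and none fell. Capns1, the regulatory subunit of the calpain proteases, was at 36.4 and 34.98 CPM with the empty vector and 67.3 and 67.5 CPM with the Hic1 vector. It rose by 0.91 ± 0.191 (log2, SE, adjusted p = 0.043 by edgeR's quasi-likelihood test) but was not called by limma voom. Capns1 was called in 7 of 13 alternatives and in none of the 4 that leave out a library, where the value stayed at 0.87 to 0.94 (adjusted p over all alternatives 0.000716 to 0.191); with the GC trend removed it was 0.69 and did not pass. Mvp, the major vault protein, rose by 1.09 ± 0.225 (adjusted p = 0.0403 by the same test), from 24.8 and 36.5 to 64.1 and 67.2 CPM. Mvp did not pass without empty vector replicate 1 (0.85) or without Hic1 vector replicate 2 (1.06) or by limma voom (1.13), with adjusted p from 2.95e-05 to 0.254 over the alternatives. Capn1, a calpain catalytic subunit, had a value of -0.69 ± 0.282 and Smpd1, the acid sphingomyelinase, one of 0.40 ± 0.158. Neither passed, and Capn1 was called in 2 of the 13 alternatives.

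Of 14 genes that set or read phosphatidylserine, the lipid annexins bind, all were tested, 2 fell, none rose and 12 did not pass, with a median of 0.030. Atp8b4, a P4-type ATPase of the flippase family, was at 378.4 and 283.6 CPM with the empty vector and 163.2 and 153.7 CPM with the Hic1 vector. It fell by 1.06 on the log2 scale (SE 0.161, adjusted p = 0.0148 by edgeR's quasi-likelihood test), and was called in 12 of 13 alternatives (adjusted p from 7.56e-08 to 0.113), the exception being without empty vector replicate 1, at -0.84. Havcr2, the receptor TIM-3, which binds phosphatidylserine, also fell, by 0.99 (SE 0.185, adjusted p = 0.0273 by the same test); without empty vector replicate 1, without empty vector replicate 2 and without Hic1 vector replicate 1 it was at -1.19, -0.77 and -0.85 and did not pass, nor with the GC trend removed, at -0.88 (adjusted p over the alternatives 4.07e-05 to 0.0772). Tmem30a, the subunit that most flippases need to leave the endoplasmic reticulum, was at 291.8 and 144.9 against 83.3 and 64.0 CPM. Its value of -1.56 ± 0.327 did not pass, nor did that of the flippase Atp11b, -1.30 ± 0.289. Tmem30a was called in 7 and Atp11b in 8 of the 13 alternatives, DESeq2 and limma voom among them.

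**Figure D3:**
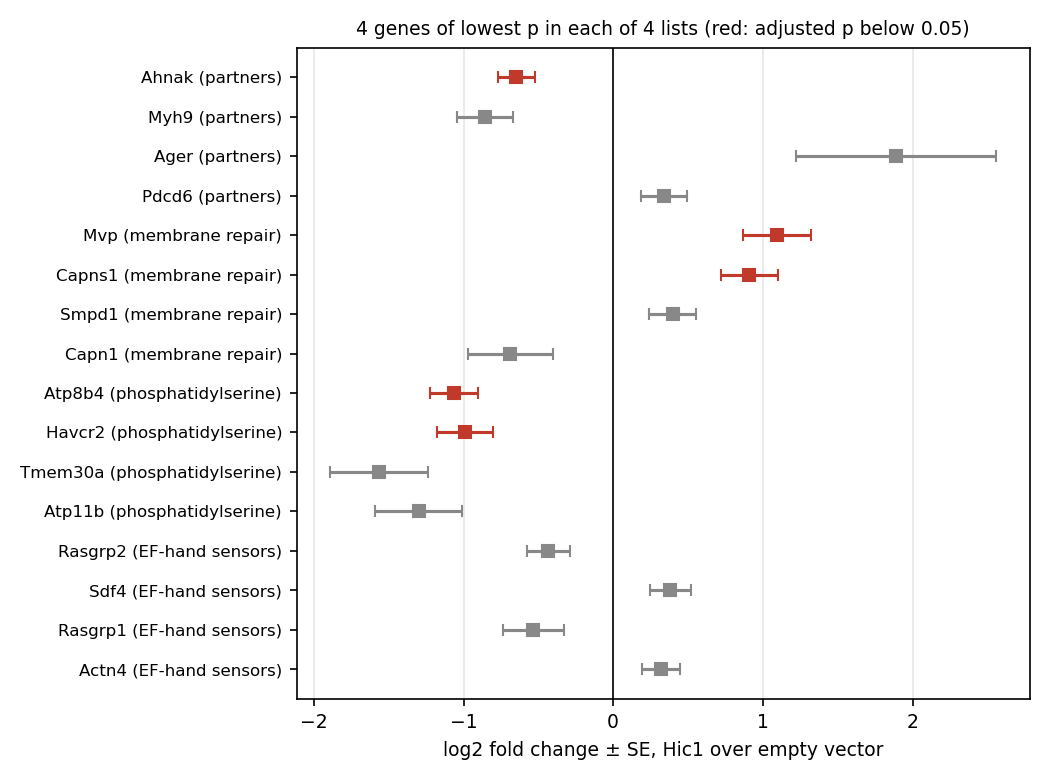
Log2 fold change with SE (Hic1 vector over empty vector, n = 2 libraries per group) for the 4 genes of lowest p in the lists of partners, membrane repair, phosphatidylserine and EF-hand genes; red marks an adjusted p below 0.05 over all genes tested. Ahnak, Atp8b4 and Havcr2 are below 0 and Mvp and Capns1 above it in red, and the EF-hand genes are all grey.

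Of 24 EF-hand calcium sensors outside the S100 family, 22 were tested (median 0.13). None was called by edgeR, DESeq2 or limma voom. An unadjusted edgeR p below 0.05 was found for 9 of the 22 (40.9%), against 19.1% of all genes tested. Those of lowest p were Rasgrp2, an exchange factor for Rap1, at -0.43 ± 0.144, Sdf4, a calcium binder of the Golgi lumen, at 0.38 ± 0.136, Rasgrp1 at -0.53 ± 0.203 and Actn4 at 0.32 ± 0.128. Rasgrp2 and Rasgrp1 were each called in 1 of the 13 alternatives. Because Anxa1 is a glucocorticoid-induced gene, 12 genes of the glucocorticoid response were also set beside it. Of these 10 were tested (median 0.35). None was called by edgeR or limma voom and 1 by DESeq2, and 5 had an unadjusted edgeR p below 0.05. Of the 10 values 6 were above 0 and 4 below. Nr3c1, the receptor, had a value of -0.60 ± 0.233, while its targets Tsc22d3 and Fkbp5 were at 0.43 ± 0.17 and 0.53 ± 0.202 and Il7r at 1.71 ± 0.395. Other genes of the list were below 0, Cxcr4 at -1.68 ± 0.672, Ddit4 at -0.89 ± 0.459 and Sgk1 at -0.24 ± 0.161. The rest were above 0, Dusp1 at 0.97 ± 1.26, Per1 at 0.35 ± 0.232 and Zfp36 at 0.35 ± 0.195. Il7r was called in 6 of the 13 alternatives, DESeq2 among them. Among 24 effector genes of the cytoskeleton, adhesion and cytotoxicity, 23 were tested, Ahnak and Tbx21 fell and 21 did not pass, with a median of -0.097 and 15 of 23 values below 0. Tbx21, which encodes T-bet, fell by 0.84 (SE 0.17, adjusted p = 0.043 by edgeR's quasi-likelihood test), and did not pass without empty vector replicate 1 (-1.01), without empty vector replicate 2 (-0.66) or without Hic1 vector replicate 2 (-0.65). Zeb2, a transcriptional repressor in effector cells, and Rap1b, an integrin-activating GTPase, had values of -0.65 ± 0.165 and -0.63 ± 0.162 and did not pass, though they were called in 4 and 5 of the 13 alternatives.

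Markers of other cells were checked because myeloid cells are rich in annexins and S100 proteins. Of 17 myeloid markers 7 were tested and none was called by edgeR, DESeq2 or limma voom, with 1 at an unadjusted edgeR p below 0.05. Their summed level was 676.3 and 709.5 CPM with the empty vector and 796.5 and 743.8 CPM with the Hic1 vector, most of it from Itgax and Cst3. Lyz2, Ly6g, S100a8, S100a9, Retnlg, Mpo, Elane, Ngp and Camp had at most 13 counts in any library, and Adgre1 had 6 and 10 counts with the empty vector and 0 with the Hic1 vector. Other genes of the list were detected. Itgam, which effector T cells also express, was at 33.5 and 28.2 against 15.5 and 17.8 CPM, a log2 value of -0.88 ± 0.259 that did not pass. Cd68 had 52 to 236 counts, Tyrobp 36 to 97, Fcer1g 12 to 35 and Csf1r 1 to 37. Of 10 B cell markers 5 were tested and Ighm, the heavy chain of IgM, rose by 1.57 ± 0.186 (adjusted p = 0.00706 by edgeR's quasi-likelihood test), from 61.4 and 84.4 to 237.9 and 197.1 CPM. The other 4 tested B cell markers did not pass. Cd79b, with 67 and 13 against 270 and 117 counts, had a log2 value of 1.36 ± 0.776 and was called in 2 of 13 alternatives. Cd79a was at 1.19 ± 0.809, while Igkc and Cd74 were below 0, at -0.83 ± 0.55 and -0.80 ± 0.483. The summed level of that list was 89.1 and 103.4 against 285.2 and 220.8 CPM, while Ms4a1 had 0 to 2 counts and Pax5 0 to 5. Of the markers of NK cells, CD4 T cells, and stroma or erythroid cells, 2, 3 and 2 were tested. None was called by edgeR, DESeq2 or limma voom, and 2, 0 and 0 had an unadjusted edgeR p below 0.05. Klrb1c, an NK receptor gene, was at 29.4 and 43.7 against 58.6 and 70.8 CPM, a log2 value of 0.82 ± 0.23 that did not pass but was called in 4 of 13 alternatives, and Eomes, a transcription factor of NK and CD8 T cells, had a value of -1.04 ± 0.36. Ncr1 had at most 2 counts and Foxp3 at most 2. Zbtb7b, Ctla4 and Cd40lg, the tested CD4 T cell genes, had values of 0.61, 0.67 and 0.70. The part of any of these cell types in the values of the members was not tested. Of the 12 CD8 T cell genes, Trbc2 rose by 0.58 ± 0.125 (adjusted p = 0.0444 by the same test), and all 12 had a value above 0. Trbc2 did not pass without empty vector replicate 1 (0.54), without empty vector replicate 2 (0.61) or without Hic1 vector replicate 2 (0.55), nor by limma voom (0.58), with library sizes alone (0.51) or with the GC trend removed (0.53).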

How the data were processed

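Messenger RNA of P14 CD8+ T cells from mouse spleen was measured in 4 libraries. Smart-seq2 libraries were made from 5 µl of the lysate of 1000 cells, resorted from 5000, with 12 PCR cycles, per the labels' protocols. The authors' deposited raw table holds whole-number read counts per gene, which were used as deposited. The submitters' processing notes name mm10, DESeq2 1.3.2, featureCounts 1.5.3, STAR 2.5.2b and Trimmomatic 0.38, with no role or order. No source used here gives the strand setting. The normalized table was left out. The PCR reads carry no molecular identifiers.

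After filterByExpr (at least 10 counts, and 15 in total), TMM scaling and a fit on the 2 groups were done in edgeR 4.0.16 with the quasi-likelihood F test (robust, prior count 2). Calls used a Benjamini-Hochberg adjusted p below 0.05 over all genes tested. The SE is the log2 fold change divided by the square root of F. Lengths, GC content and coordinates came from GENCODE M21, where 99.5% of the gene identifiers were found. Promoter motifs were searched on both strands. Alternatives were DESeq2 1.42.0, limma 3.58.1 voom, other scalings and filters, removal of a GC trend (loess, span 0.3), a replicate block and leaving out each library; R was 4.3.3. The fit was also run on simulated counts with the same dispersion for every gene and no effect of replicate number. That run cannot show how the fit behaves where libraries share deviations.

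Named genes are the members, other annexin and S100 genes, up to 4 genes of lowest p in each list, cell type markers, Hic1, Xist and Eif2s3y. The other tested genes of the glucocorticoid list are named too. Anxa11os, which overlaps Anxa11, was named after its values were seen. The members, the lists and the rule were chosen with earlier results of these data known.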

Additional observations from a re-analysis of the deposited data

Results flagged for a closer look

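In 4 of the 14 annexin and S100 genes that passed the filter on low counts, the difference between Hic1 vector and empty vector had opposite signs within the 2 replicate numbers, which also differ in Xist and Y-linked transcripts. The log2 difference of Anxa4 was 0.047 within number 1 and -0.34 within number 2, and that of S100a10 was -0.17 and 0.12. S100a11 had -0.036 and 0.35, and S100a13 had -0.015 and 0.33. Each value rests on 1 library per group, and whether the numbers differ was not tested. Of all 11676 genes tested, 32.2% had opposite signs within the numbers, against 2 of the 10 members.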

How the results depend on the processing

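With 2 libraries per group and depth that differed with the group, calls depended on the fit. The number of genes called was 213 (84 higher and 129 lower), against 321 with library sizes alone (70 higher and 251 lower), 418 with DESeq2, 121 with limma voom (33 higher), 819 with no low-count filter (461 higher) and 125 with the GC trend removed (36 higher). It was 8 to 318 with 1 library left out, the lowest being without empty vector replicate 1. Members called went from 1 to 3 with DESeq2 and with no low-count filter (Anxa11 and S100a4 added), and were 0 to 2 with 1 library left out. Replicate numbers are shared between the groups, but nothing in the labels pairs the libraries. Deviations from the group means correlated at 0.239 between libraries of the same number. With a replicate block 794 genes and 3 members were called (Anxa1, Anxa11 and S100a4), and Il7r (adjusted p = 0.00191), Capn1 (0.041), Rasgrp2 (0.0452), Zeb2 (0.0225), Rap1b (0.0363), Tmem30a (0.00143), Atp11b (0.000959), Myh9 (0.00191) and Klrb1c (0.0221) passed. With the GC trend removed and a replicate block 615 genes and 4 members were called (S100a6 added). Anxa1 was called in 12 of 13 alternatives at -1.57 to -1.04, and the sign held in all 13 for 8 of the 10 members. S100a10 was at 0.041 with no low-count filter. With 1 library left out, signs differed within the ranges of Anxa4 (-0.38 to 0.071), S100a10 (-0.13 to 0.089), S100a13 (-0.032 to 0.36), S100a11 (-0.00023 to 0.30), Csf1r (-2.85 to 0.33) and Cd40lg (-0.21 to 1.26). A lone library in a group is assumed to vary like the other group. No other annexin or S100 gene was called in any alternative that tested it. Anxa9 had a value in 8 of the 13 and S100a1 in 12, and DESeq2 gave Anxa9 no adjusted p. The cause of these changes was not tested.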
